A study of Mus musculus with 6 samples.

Results

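Gene expression was compared between muscle stem cells (MuSCs) of dystrophic mdx mice and MuSCs of control mice, which the labels call wild type. Of the 6 RNA-seq libraries of the series, 4 belong to these groups, control replicates 1 and 2 and mdx replicates 1 and 2, and the comparison covers the 21810 autosomal genes among the 22706 genes of the deposited table. Chromosomes X and Y were left out, for a reason given in the checks that follow. The remaining 2 libraries are of Sirt6-mKO mdx mice, which carry the mdx mutation and a Pax7-Cre driven deletion of Sirt6. They entered the fit to estimate the spread between libraries and, apart from checks of the libraries, are not described.

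MuSCs, also called satellite cells, lie between the muscle fibre and its basement membrane and rest in a quiescent state in healthy muscle. Injury brings them into the cell cycle, after which some return to quiescence and others differentiate under the myogenic factors MYOD and myogenin to repair or replace fibres. In mdx mice a point mutation in the X-linked dystrophin gene leaves fibres without functional dystrophin, so that fibres break down and regenerate repeatedly in a muscle that is inflamed and gains fibrous tissue. All cells came from muscle digested with dispase and collagenase and were sorted by flow cytometry, without culture, before total RNA was depleted of ribosomal RNA. The study's methods describe removal of cells bearing Sca1, CD45 or CD31 and a gate either on integrin alpha 7 and CD34 or on a fluorescent reporter. The study's legends describe young adult male mice. Which gate served these libraries and how many animals went into each are not given in the sources used here.

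Values are normalised read counts, that is, reads per gene divided by a size factor of the library. The 4 libraries held between 4397632 and 9745218 approximate reads, and 19191 to 20614 genes had a value above 0 in them. The 10 genes with the highest values took 11.7% of the summed value in control replicate 2 and 21.7% to 22.9% in the other three. The study names 2 biological replicates per group. The p-values rest on the spread within the 3 groups of all 6 libraries, moderated by limma toward that of genes of similar level. With 2 libraries a side they describe these libraries only.

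The libraries were checked against their labels first. Xist, which coats and silences the inactive X, had values of 16772 and 12950 in control and of 7 and 8 in mdx. The Y-linked gene Ddx3y had values of 3 and 8 in control and of 1024 and 1055 in mdx. The control libraries thus had the pattern of female cells and the mdx libraries that of male cells, whereas the study states the use of male mice. The Sirt6-mKO mdx libraries had the male pattern too, with Xist at 33 and 34 and Ddx3y at 1555 and 1767. Whether the control mice were female or libraries were exchanged cannot be told apart from these values, so control and mdx mean the libraries labelled so throughout. Sex and genotype cannot be told apart in any result that follows. Restricting the comparison to autosomes removes genes on the sex chromosomes and not the influence of sex on autosomal genes. The labels give strain C57BL/6 for all mice, and the study states that this background was kept and littermates served as controls, whereas the mdx line it names is C57BL/10ScSn. How much of the C57BL/10ScSn genome the mdx mice kept was not tested. Nnt, a mitochondrial gene with a deletion in the C57BL/6J substrain, measured 115 and 256 in control versus 381 and 274 in mdx and was not called (log2 fold change 0.91, limma adjusted p 0.091, with 0.33 without control replicate 1 and 1.48 without control replicate 2). Dmd itself, which encodes dystrophin, stood at 2743 and 2573 in control against 2883 and 2627 in mdx, so the groups overlapped. A value for the whole gene does not show a point mutation.

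MuSC identity was checked with 10 marker genes. Pax7, the transcription factor that defines MuSCs, had values of 2754 and 2932 in control and of 2167 and 2521 in mdx. Itga7, the integrin used for sorting, measured 2364 and 2556 in control versus 3022 and 3250 in mdx. The summed value of the 10 markers was 25657 and 26354 in control and 23886 and 21074 in mdx. Of the 10 markers 0 were called higher and 2 lower, Sdc4 and Chrdl2, whose values follow with the quiescence genes. Fibre transcripts were present as well. The sum of 12 myofibre markers was 9586 and 12615 in control, 7797 in mdx replicate 1 and 2570 in mdx replicate 2. Of 10 endothelial markers the sum was 951 and 843 in control against 441 and 458 in mdx, and most of it came from Tek, with 669 and 631 in control against 379 and 348 in mdx, which was not called. Pecam1, which encodes the depletion marker CD31, stood at 199 and 86 in control against 20 and 47 in mdx and was called lower (-2.05, with the call lost without control replicate 1 at -1.45 or mdx replicate 1 at -1.46), as was Kdr (-3.11, with the call lost when any of the 4 libraries was left out). The sum of 12 leukocyte and macrophage markers was 106 and 133 in control against 133 and 100 in mdx, and 8 of the 12 stayed under 10 in all 4 libraries. Lyz2, the lysozyme of myeloid cells, stood at 0 and 14 in control against 47 and 26 in mdx and was called higher (3.22, with 1.26 without control replicate 1, and the call lost there and without either mdx library at 2.80 and 3.63). Cd68 was called lower (-1.60, with the call lost when any of the 4 libraries was left out), and the median of the 6 tested members was 1.86. Among 6 erythroid markers 5 stayed under 10, and the sum was 26 and 14 in control and 6 and 8 in mdx. For 10 fibro-adipogenic markers, genes of the connective tissue progenitors of muscle, the sum was 4174 and 4082 in control, 4172 in mdx replicate 1 and 2399 in mdx replicate 2. Most of this sum came from Dpt, with 2662 and 2501 in control against 3504 and 2180 in mdx, which was not called. Gfpt2 added 1353 and 1383 in control against 48 and 86 in mdx. Within this list Ly6a, which encodes the depletion marker Sca1, stood at 3 and 9 in control against 79 and 21 in mdx and was called higher (2.73, with 1.80 without mdx replicate 1, where the call was lost, as it was without control replicate 1 at 2.07), and Gfpt2 was called lower (-4.39). In all 7 of the 9 tested members had a fold change above 0. The sum of 10 smooth muscle and pericyte markers was 2024 and 3142 in control against 3904 and 3794 in mdx. Without Acta2, smooth muscle actin, the other 9 summed to 1217 and 1538 in control against 1067 and 1460 in mdx, so the groups overlapped, and the median of the 9 tested members was -0.29. Acta2 itself stood at 807 and 1604 in control against 2837 and 2334 in mdx. It was called higher at 1.18, with 0.68 without control replicate 1, and the call was lost there and without either mdx library (1.04 and 1.32), while Abcc9 of the same list was called lower (-1.43). The sum of 5 tenocyte markers was 147 and 184 in control, 430 in mdx replicate 1 and 143 in mdx replicate 2. Thbs4, which was not called, gave 363 of the 430, and the tendon genes Fmod (-1.63) and Mkx (-3.42) were called lower, calls that were lost when any of the 4 libraries was left out. In bulk RNA of sorted cells, fewer cells of a type and less RNA per cell cannot be told apart.

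**Figure D1:**
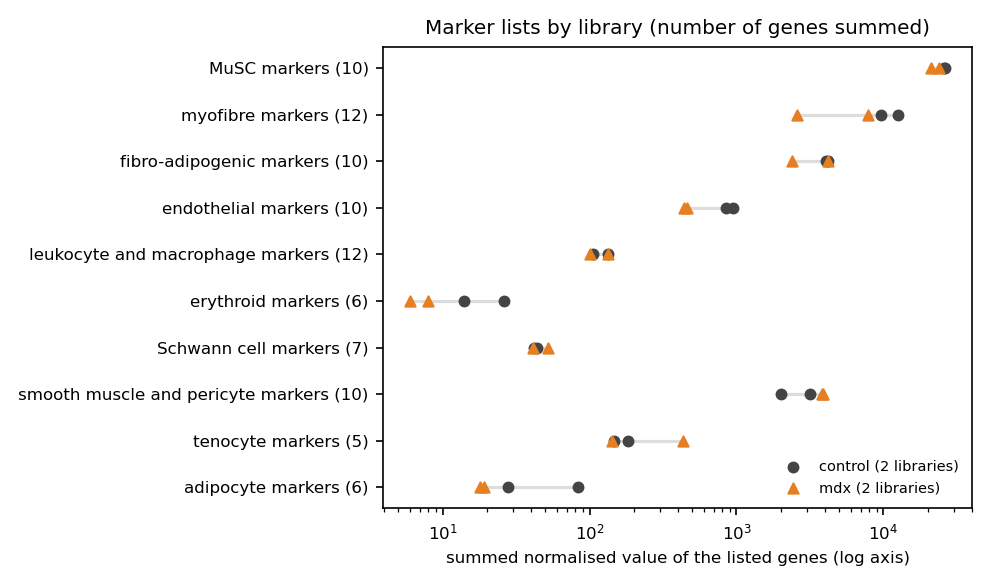
Summed normalised value (log axis) of each marker list in the 2 control libraries (circles) and the 2 mdx libraries (triangles), with the number of genes summed in brackets. MuSC markers sum to between 21074 and 26354, and mdx replicate 2 has the lowest myofibre sum at 2570.

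The comparison asks how the expression programme of MuSCs differs in dystrophic muscle. A gene was called when its Benjamini-Hochberg adjusted p from limma was at most 0.05 and its fold change at least 2, which is a log2 fold change of 1 in either direction. Fold changes are mdx minus control on the log2(value + 1) scale, so that changes at low values are understated. The 15382 autosomal genes that were tested gave 1029 (6.69%) with higher and 1148 (7.46%) with lower expression in mdx, 14.2% in all. The median log2 fold change of all tested genes was -0.00. Large falls outnumbered large rises. At least 4-fold differences were seen for 308 higher and 543 lower genes, and at least 16-fold differences for 30 higher and 47 lower genes. In 56.9% of the tested genes, called or not, both control libraries lay on the same side of both mdx libraries. The count depended on single libraries: it was 905 without mdx replicate 1, 1287 without mdx replicate 2 and 1328 without control replicate 1, against 2321 without control replicate 2. The share of genes called was lowest at low levels, with 1.97% higher and 1.77% lower among genes with a mean under 20, against 9.34% and 8.30% at means of 50 to 200, 8.17% and 10.4% at 200 to 1000, and 10.5% and 17.0% among genes with a mean of at least 1000.

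**Figure D2:**
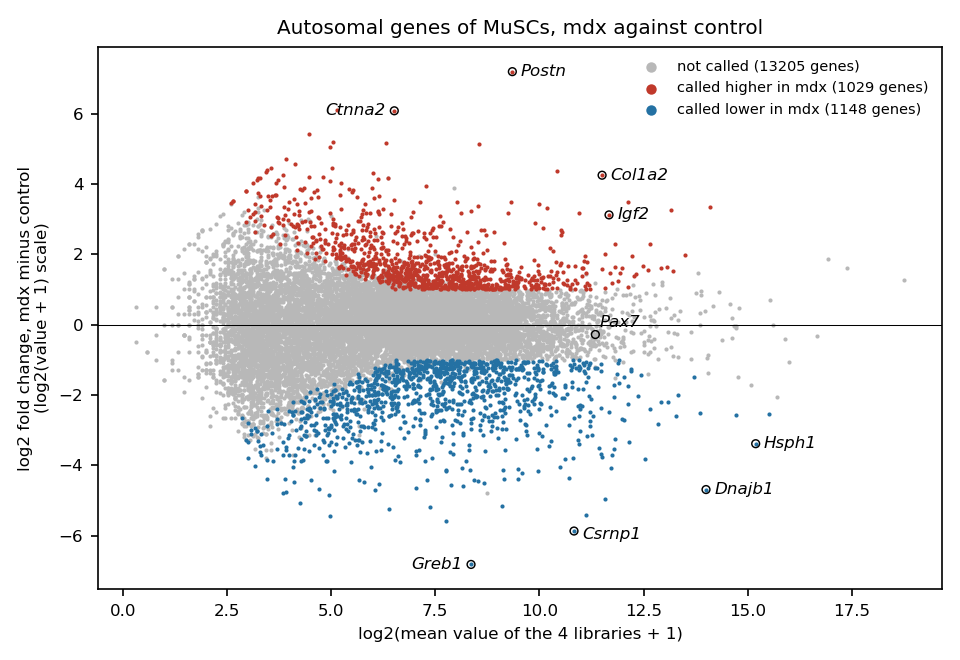
Log2 fold change of mdx over control against the log2 mean value of the 4 libraries for 15382 autosomal genes. Red points are the 1029 genes called higher in mdx, blue points the 1148 called lower and grey points those not called. Postn lies at 7.19, Greb1 at -6.82, and the marker Pax7 near 0.

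The 12 called protein-coding genes with the largest rises, among those with a mean of at least 50, were of varied function. Postn, which encodes the matricellular protein periostin, stood at 5 and 12 in control against 1384 and 1204 in mdx (log2 fold change 7.19, SE 0.53, limma adjusted p 6.1e-07). Ctnna2, an alpha-catenin that links cadherins to actin, had values of 0 and 6 in control and of 183 and 173 in mdx. Its log2 fold change was 6.08 with an SE of 0.77. Col1a2, a chain of type I collagen, measured 196 and 416 in control versus 4730 and 6265 in mdx, a log2 fold change of 4.25 (SE 0.36, limma adjusted p 2.4e-06). In each of these genes the 2 control libraries were low and the 2 mdx libraries high, which the rule for naming them required. Mgp, the matrix Gla protein that inhibits calcification, stood at 2 and 16 in control against 102 and 153 in mdx. Tnnt2, the troponin T of cardiac and embryonic skeletal muscle, had values of 2 and 19 in control and of 103 and 124 in mdx. Pkp1, the desmosomal protein plakophilin 1, was at 8 in both control libraries and at 64 and 200 in mdx. Cenpf, a kinetochore protein, measured 6 and 12 in control versus 86 and 151 in mdx. Their log2 fold changes lay between 3.59 and 4.14. Other log2 fold changes were 5.18 for AI467606, 4.32 for Cpa4, a carboxypeptidase, 4.16 for Vsig8, 3.55 for Akr1b8, an aldo-keto reductase, and 3.49 for Wisp2, a matricellular protein of the CCN family. The size of several rises rested on 1 control library, since Tnnt2 was at 2.51 without control replicate 1 and 5.25 without control replicate 2, Wisp2 at 2.03 and 4.95, and Vsig8 at 5.57 and 2.76. The calls of Tnnt2, Pkp1 and Cenpf were lost without mdx replicate 2, where they were at 3.75, 2.85 and 3.19, and that of Wisp2 without mdx replicate 1, at 2.72.

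The 12 protein-coding genes with the largest falls were likewise varied in function. Nr4a1, an orphan nuclear receptor induced within minutes of a stimulus, stood at 5322 and 6521 in control against 163 and 219 in mdx (log2 fold change -4.96, SE 0.26, limma adjusted p 2.6e-08). Dnajb1, the HSP40 partner of HSP70, had values of 26187 and 36763 in control and of 942 and 1533 in mdx, a log2 fold change of -4.69 (SE 0.40, limma adjusted p 2.4e-06). Dusp8, a phosphatase that switches off stress-activated MAP kinases, measured 447 and 450 in control versus 17 and 19 in mdx. Ikzf4, an Ikaros family transcription factor, stood at 181 and 143 in control against 1 and 8 in mdx. Each of these genes was separated between the groups by a gap wider than the spread within a group. The rule for naming them required that the groups be separate. Ksr2, a scaffold of the RAS and MAP kinase pathway, had values of 231 and 415 in control and of 5 and 11 in mdx. Alpl, the tissue-nonspecific alkaline phosphatase, measured 258 and 855 in control versus 26 and 13 in mdx. Npr3, the clearance receptor for natriuretic peptides, stood at 116 and 147 in control against 15 and 1 in mdx. Their log2 fold changes were -5.19, -4.60 and -4.54. Lower still or close to these were Greb1 (-6.82), Csrnp1 (-5.87), Akr1c14 (-5.57), Atf3 (-5.42) and the predicted gene Gm17087 (-4.65). The call of Npr3 was lost without mdx replicate 2 (-3.04) and without either control library (-4.71 and -4.37).

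**Figure D3:**
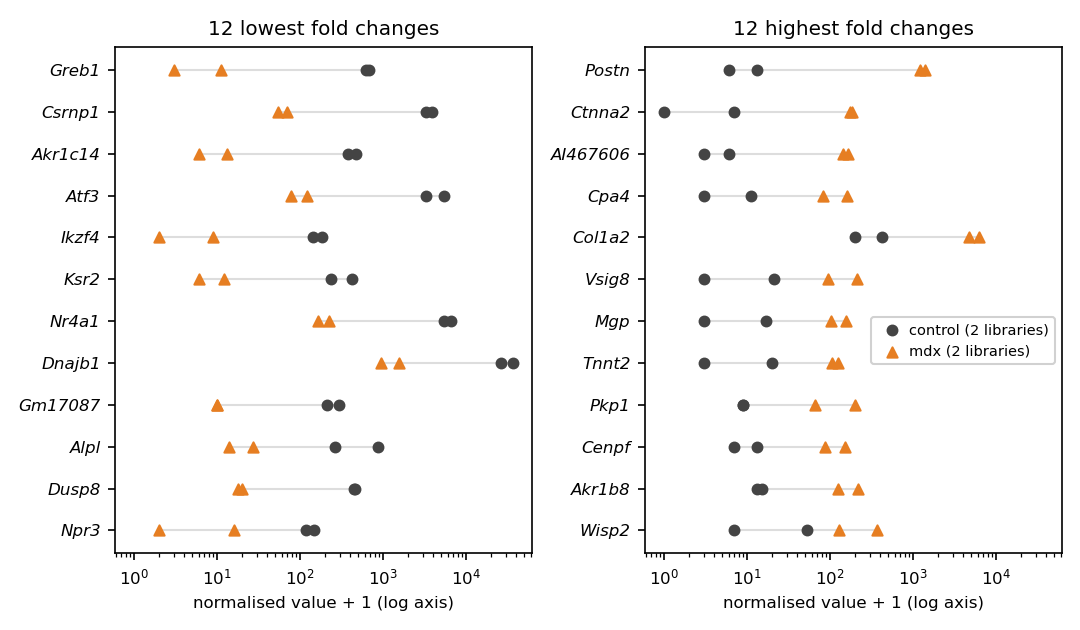
Normalised value plus 1 (log axis) in the 2 control libraries (circles) and the 2 mdx libraries (triangles) for the 12 lowest and the 12 highest log2 fold changes among called protein-coding genes with a mean of at least 50. The rule that chose the 24 genes required separate groups, and Wisp2 has the narrowest gap among the rises, from 52 in control replicate 2 to 126 in mdx replicate 2.

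Genes of extracellular matrix were called in both directions. Of 46 tested genes of the interstitial matrix and its assembly, 11 (23.9%) were higher and 8 (17.4%) lower in mdx, against 6.69% and 7.46% of all tested genes. Their median log2 fold change was 0.39 (0.21 without mdx replicate 1) against -0.00 for all tested genes. Among the fibrillar and associated collagens, Col1a1 had values of 634 and 862 in control and of 2013 and 1898 in mdx, a log2 fold change of 1.402. Col6a3, a chain of the microfibrillar type VI collagen, measured 57 and 186 in control versus 871 and 511 in mdx, a log2 fold change of 2.68 that was 1.84 without control replicate 1 and lost its call without mdx replicate 1 (2.30). Col3a1 stood at 16458 and 22798 in control against 30817 and 26928 in mdx and was not called (0.57, limma adjusted p 0.535). It was at 0.34 without control replicate 1 and 0.81 without control replicate 2. Both type I collagen genes were thus called, and the type III gene was not, a difference that was not itself tested. Tnc, which encodes the glycoprotein tenascin C, had values of 48 and 140 in control and of 447 and 596 in mdx, a log2 fold change of 2.64. Spp1, which encodes osteopontin, measured 9 and 43 in control versus 162 and 129 in mdx. Its log2 fold change was 2.79, and 1.73 without control replicate 1, and its call was lost without mdx replicate 1 (2.63). In the other direction, Thbs1, which encodes thrombospondin 1, had values of 1934 and 5337 in control and of 329 and 278 in mdx, a log2 fold change of -3.40. Ctgf, a CCN protein, fell to a log2 fold change of -3.07 and Tnxb, which encodes tenascin X, to -2.85. P4ha1, a prolyl hydroxylase needed for collagen folding, and the collagen gene Col12a1 were at -2.01 and -1.23. The higher Col5a2, Mfap4, Aspn, Ogn and Pcolce and the lower Eln and Fmod each lost their call without at least 1 library, with Aspn at 2.42 and 1.51 without mdx replicate 1, Ogn at 1.16 and 0.58 without mdx replicate 1, Pcolce at 1.12 and 0.73 without control replicate 1, and Fmod at -1.63 and -1.03 without mdx replicate 2.

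Of 14 tested genes of the basement membrane, on which MuSCs rest, 3 (21.4%) were higher and 0 lower, against 6.69% and 7.46% of all tested genes. Their median of 0.22 was -0.0026 without control replicate 1, 0.45 without control replicate 2 and 0.12 without mdx replicate 2. Lamb1, a laminin beta chain, measured 331 and 763 in control versus 1453 and 1440 in mdx (log2 fold change 1.52). Col18a1 stood at 468 and 625 in control against 1118 and 1525 in mdx (1.27), and Nid2, a nidogen that links laminin to collagen IV, had values of 199 and 205 in control and of 431 and 384 in mdx (1.01). Their calls were each lost without at least 2 of the 4 libraries, and Lamb1 was at 0.92 without control replicate 1. Hspg2, which encodes the proteoglycan perlecan, measured 10285 and 10376 in control versus 4807 and 8420 in mdx and was not called. Among 21 genes of the dystrophin-associated complex and its glycosylation, 1 was higher and 1 lower (4.76% each), below the 6.69% and 7.46% of all tested genes. Their median was 0.09 and ran from -0.027 without mdx replicate 2 to 0.17 without mdx replicate 1. Sgce, the epsilon-sarcoglycan, stood at 207 and 161 in control against 492 and 387 in mdx (log2 fold change 1.25), and its call was lost without mdx replicate 1 (1.08).

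Genes linked to quiescence did not move as a block. Of 26 tested genes of MuSC quiescence and niche, 3 (11.5%) were higher and 4 (15.4%) lower, against 6.69% and 7.46% of all tested genes. Their median of -0.26 was -0.049 without mdx replicate 2, -0.063 without control replicate 2 and -0.15 without mdx replicate 1. The largest rise was that of Cdkn1c, which encodes the cell cycle inhibitor p57, with 57 and 180 in control against 1218 and 1072 in mdx (log2 fold change 3.48, SE 0.43, limma adjusted p 7.6e-05). Met, the receptor for hepatocyte growth factor, measured 562 and 524 in control versus 1489 and 1486 in mdx, a log2 fold change of 1.45. Sdc4, a syndecan used as a MuSC surface marker, stood at 7692 and 6224 in control against 1100 and 1049 in mdx (log2 fold change -2.69, SE 0.28, limma adjusted p 1.3e-05). Chrdl2, a chordin-like BMP antagonist, had values of 684 and 728 in control and of 136 and 137 in mdx, a log2 fold change of -2.36. Foxo3, a transcription factor of quiescence, measured 1879 and 1164 in control versus 329 and 426 in mdx, a log2 fold change of -1.98. Pax7 (-0.28) and the adhesion molecule Vcam1 (0.78) were not called. The other called members were Cav1, which encodes caveolin 1 and had a log2 fold change of 1.25 with its call lost without control replicate 1 (1.24) or mdx replicate 1 (1.08), and Pax3, at -1.24, whose call was lost when any of the 4 libraries was left out (-1.47 to -1.005).

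Markers of myogenic commitment and differentiation were also split, with 6 of 26 tested genes (23.1%) higher and 4 (15.4%) lower, against 6.69% and 7.46% of all tested genes. Their median of 0.27 turned to -0.034 with a minimum mean of 50 and was 0.0082 without mdx replicate 1, 0.077 without control replicate 2 and 0.16 without control replicate 1. Myog, which encodes myogenin, stood at 124 and 281 in control against 945 and 920 in mdx (log2 fold change 2.31, SE 0.42, limma adjusted p 0.0017). Igf2, the insulin-like growth factor that myoblasts secrete as they differentiate, had values of 621 and 686 in control and of 7301 and 4419 in mdx, a log2 fold change of 3.12. Cdh2, which encodes N-cadherin, measured 27 and 43 in control versus 224 and 202 in mdx, a log2 fold change of 2.61. Mef2d, a transcription factor that works with MYOD, stood at 796 and 713 in control against 244 and 336 in mdx, a log2 fold change of -1.39. Actc1, the actin of cardiac and embryonic muscle, was at 1.64. The sarcomere genes Tnnc1, Tnni1 and Myh3 of slow or embryonic fibres were lower (-2.20, -1.32 and -1.34), and Tnnt2 was higher. The calls of Actc1, Tnnc1, Tnni1 and Myh3 were each lost without 3 of the 4 libraries, and Myh3 was at -0.64 without control replicate 2. The myofibre sum, 9586 and 12615 in control against 7797 and 2570 in mdx, was lower in mdx, as were these last 3 genes. Acta1, the actin of adult fibres, was at 2239 and 2394 in control, 1194 in mdx replicate 1 and 421 in mdx replicate 2, with a log2 fold change of -1.71 that became -0.95 without mdx replicate 2, with the call lost there and without either control library (-1.75 and -1.66). The part of fibre RNA in these values was not tested.

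In the S phase and mitosis lists, 0 genes were called lower and a minority were called higher. Of 50 tested genes of DNA replication and S phase 12 (24%) were higher and 0 lower, with a median of 0.84. Of 50 genes of G2 and mitosis 22 (44%) were higher and 0 lower, with a median of 1.70. Over all tested genes 6.69% were higher and 7.46% lower. Mki67, the proliferation marker, had values of 39 and 80 in control and of 252 and 548 in mdx. Mcm2, a subunit of the replicative helicase, measured 38 and 57 in control versus 136 and 230 in mdx, a log2 fold change of 1.90 (SE 0.42, limma adjusted p 0.0062). Its call was lost without control replicate 1 (1.62) or mdx replicate 2 (1.53). Smc4, a condensin subunit, stood at 157 and 179 in control against 574 and 559 in mdx, a log2 fold change of 1.75. Ncapg, another condensin subunit, had values of 2 and 5 in control and of 53 and 87 in mdx (4.02, and 3.67 without mdx replicate 2, where its call was lost). Several mitotic genes were close to absent in control. The checkpoint kinase gene Bub1 measured 3 and 1 in control versus 59 and 44 in mdx. In approximate reads pooled over each group, 3 in control and 147 in mdx, the ratio scaled by size factors was 34.1. Its 95% exact interval of 11.5 to 167 covers counting error only. Ttk, which encodes the spindle checkpoint kinase MPS1, was at 0 in both control libraries and at 17 and 14 in mdx, at least 10.2-fold higher when 3 reads over the control group are taken as the floor. Hmmr, a microtubule-binding protein, stood at 5 and 1 in control against 59 and 57 in mdx. The call of Bub1 was lost without mdx replicate 1, that of Ttk without either mdx library, and that of Hmmr (log2 fold change 4.09) without either mdx library (4.07 and 4.11) or control replicate 2 (3.30). Pcna, the sliding clamp of DNA polymerase, had values of 764 and 490 in control and of 378 and 290 in mdx and stood apart from the list with -0.88 (limma adjusted p 0.045), short of the fold change needed for a call, and with -0.56 without control replicate 1.

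Of 45 tested interferon response genes 14 (31.1%) were higher and 2 (4.44%) lower in mdx, against 6.69% and 7.46% of all tested genes. The other 29 were not called, and the median of the list was 0.77. Ifit3, an interferon-induced protein with tetratricopeptide repeats, measured 0 and 2 in control versus 75 and 51 in mdx. In approximate reads pooled over each group, 3 in control and 181 in mdx, the ratio scaled by size factors was 42.0 (95% exact interval 14.2 to 206, counting error only). Ifit1, of the same family, stood at 5 and 27 in control against 172 and 93 in mdx, a log2 fold change of 3.30 that was 2.19 without control replicate 1. Both calls were lost without mdx replicate 1 (4.91 for Ifit3 and 2.86 for Ifit1). Oasl2, of the oligoadenylate synthetase family, had values of 26 and 45 in control and of 210 and 197 in mdx, a log2 fold change of 2.54 (SE 0.43, limma adjusted p 0.00098). B2m, the light chain of MHC class I, measured 1151 and 970 in control versus 2924 and 1714 in mdx, with 1.08, and its call was lost without either control library (1.21 and 0.96) or mdx replicate 1 (0.70). The members that fell were Cxcl10, a chemokine, with 137 and 113 in control against 17 and 22 in mdx, and Irf1, a transcription factor, with 1095 and 725 in control against 219 and 242 in mdx. Their log2 fold changes were -2.62 and -1.95.

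Genes of the NF-kB pathway and its cytokines moved the other way. NF-kB is held in the cytoplasm by IkB proteins, whose genes are among its own targets. Of 28 tested genes 19 (67.9%) were lower and 2 (7.14%) higher, against 7.46% and 6.69% of all tested genes, with a median of -1.89. Nfkbia, which encodes the inhibitor IkB alpha, stood at 2831 and 1572 in control against 193 and 188 in mdx (log2 fold change -3.46, SE 0.30, limma adjusted p 2.4e-06). Icam1, an adhesion molecule for leukocytes, had values of 134 and 59 in control and of 5 and 2 in mdx. Lif, a cytokine of the IL-6 family, measured 154 and 189 in control versus 12 and 10 in mdx. Cxcl2, a chemokine for neutrophils, stood at 77 and 48 in control against 1 and 5 in mdx. Their log2 fold changes were -4.41, -3.84 and -4.16. Nfkb1, the gene of the p105 and p50 subunit, had values of 2231 and 919 in control and of 536 and 651 in mdx, a log2 fold change of -1.28 that was -0.64 without control replicate 1, and its call was lost there and without either mdx library (-1.14 and -1.42). The higher members were Traf1, a signalling adaptor with 0 and 1 in control against 19 and 15 in mdx, and Tnfaip2, with 56 and 25 in control against 100 and 117 in mdx. Each lost its call without at least 3 of the 4 libraries, and Tnfaip2 was at 0.94 without control replicate 2.

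Chaperone genes of the heat shock response fell in mdx almost throughout. Of 22 tested genes 20 (90.9%) were lower and 0 higher, against 7.46% and 6.69% of all tested genes, with a median of -2.32. Hsph1, the HSP110 exchange factor, measured 57857 and 77910 in control versus 4435 and 9300 in mdx, a log2 fold change of -3.39. Bag3, a co-chaperone of HSP70, stood at 4521 and 5963 in control against 302 and 532 in mdx (-3.69, SE 0.32, limma adjusted p 2.4e-06). Hspb1, the small heat shock protein HSP27, had values of 3878 and 4257 in control and of 394 and 513 in mdx, a log2 fold change of -3.17. Hspa1b, an inducible HSP70, measured 43503 and 48342 in control versus 7574 and 7797 in mdx. It has a near-identical copy, Hspa1a, and reads that matched several places were left out by the authors, so its level is uncertain. Among 40 tested immediate early genes, which respond to a stimulus without new protein synthesis, 36 (90%) were lower and 0 higher, with a median of -2.85. Fos stood at 10775 and 14930 in control against 1654 and 1921 in mdx, a log2 fold change of -2.83. Egr1 had values of 12387 and 16203 in control and of 2544 and 3725 in mdx, a log2 fold change of -2.20. Nr4a2, a relative of Nr4a1, measured 245 and 347 in control versus 30 and 5 in mdx.

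Of 25 genes of the unfolded protein and integrated stress responses, 6 (24%) were lower and 1 (4%) higher, against 7.46% and 6.69% of all tested genes. Their median of -0.25 became 0.23 when control replicate 2 was left out and -0.62 when control replicate 1 was. Hspa5, which encodes the endoplasmic reticulum chaperone BiP, stood at 9192 and 16521 in control against 2727 and 2648 in mdx, a log2 fold change of -2.20 (SE 0.38, limma adjusted p 0.0012). Ern1, which encodes the stress sensor IRE1 alpha, had values of 594 and 419 in control and of 195 and 201 in mdx, with -1.33. The higher gene, Pdia3, a disulphide isomerase, measured 518 and 1167 in control versus 2159 and 1689 in mdx. Its log2 fold change was 1.295, and 0.71 without control replicate 1, and the call was lost there and without either mdx library (1.12 and 1.47). Antioxidant and metallothionein genes were lower for 8 of 25 members (32%) and higher for 2 (8%), with a median of -0.47 that was -0.297 without mdx replicate 2. Osgin1 stood at 399 and 327 in control against 81 and 57 in mdx (-2.39), and Ftl1, the ferritin light chain, had values of 674 and 444 in control and of 182 and 124 in mdx (-1.86). Akr1b8 ran against the list, with 12 and 14 in control against 214 and 123 in mdx.

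Components of cAMP signalling, which acts on MuSC quiescence, were mostly not called. Of 23 tested genes 5 (21.7%) were lower and 1 (4.35%) higher, against 7.46% and 6.69% of all tested genes. Their median of -0.70 was -0.45 without control replicate 2 and with a minimum mean of 50. Crem, a transcription factor that cAMP induces, measured 817 and 521 in control versus 100 and 80 in mdx (log2 fold change -2.85, SE 0.29, limma adjusted p 1.3e-05). The phosphodiesterases that degrade cAMP included Pde4b, with 7252 and 7405 in control against 1640 and 1423 in mdx (-2.26), and Pde10a, with 1299 and 1261 in control against 274 and 304 in mdx (-2.14). The gene of the catalytic subunit of protein kinase A, Prkaca, stood at 168 and 264 in control against 434 and 416 in mdx. At a log2 fold change of 1.01 it lost its call without 3 of the 4 libraries and stood at 0.68 without control replicate 1.

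The TGF-beta and activin pathway, which drives matrix production, was lower for 6 of 24 tested genes (25%) and higher for 2 (8.33%). Over all tested genes these shares were 7.46% and 6.69%. The median of the list, -0.26, was -0.44 without mdx replicate 2, -0.40 without control replicate 2 and -0.15 without a minimum mean. Among the lower members, 4 were inhibitors of the pathway. Skil, a corepressor of SMADs, had values of 3397 and 3549 in control and of 773 and 630 in mdx (log2 fold change -2.31, SE 0.25, limma adjusted p 2.1e-05). Tgif1, another corepressor, measured 1434 and 1188 in control versus 257 and 265 in mdx, with -2.32. Bambi, a decoy receptor, stood at 172 and 116 in control against 22 and 23 in mdx, with -2.60, and the inhibitory Smad7 had values of 272 and 225 in control and of 54 and 68 in mdx, with -2.01. Among the receptors, Tgfbr3, the co-receptor betaglycan, measured 4986 and 5835 in control versus 1738 and 1533 in mdx (-1.72), whereas Acvr2a, an activin and myostatin receptor, stood at 328 and 339 in control against 1037 and 806 in mdx (1.45). The other higher member was Tgfbi, a matrix protein induced by TGF-beta, with 11 and 54 in control against 130 and 105 in mdx. The log2 fold change of 2.20 was 1.10 without control replicate 1, and the call was lost there and without either mdx library (2.04 and 2.35). In the Notch pathway, which maintains quiescence, 1 of 21 tested genes (4.76%) was called, against 14.2% of all tested genes. It was the coactivator Maml1 at -1.10, and the call was lost without control replicate 1 (-0.94) or mdx replicate 1 (-0.86). The receptor genes Notch2, with 3989 and 3591 in control against 1743 and 2412 in mdx, and Notch3, with 7831 and 6184 in control against 4041 and 5382 in mdx, were not called. Their log2 fold changes were -0.88 (limma adjusted p 0.053) and -0.58 (0.24). In both the libraries did not overlap between the groups, which held for 11 of the 21 tested genes of the list and 56.9% of all tested genes.

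**Figure D4:**
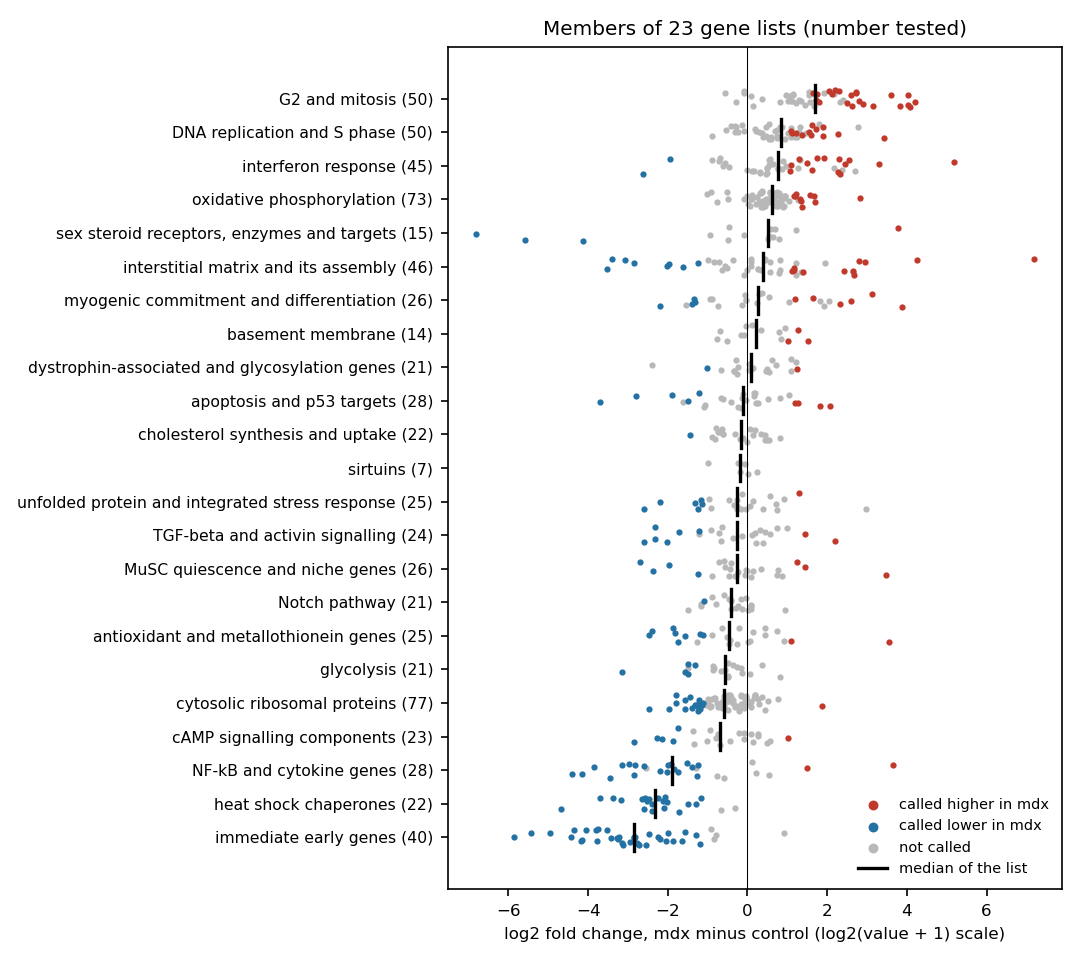
Log2 fold change of mdx over control for the tested members of 23 gene lists, 1 point per gene, with the number tested in brackets and the list's median as a black bar. G2 and mitosis genes lie furthest to the right, with a median of 1.70, and immediate early genes furthest to the left, with -2.85. Matrix genes spread to both sides.

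Most listed genes of metabolism were not called, and a difference between the lists was not tested. Of 73 tested subunit genes of oxidative phosphorylation 10 (13.7%) were higher and 0 lower, against 6.69% and 7.46% of all tested genes. In all 66 of the 73 had a fold change above 0, with a median of 0.62 that was 0.41 without mdx replicate 1. Ndufv2, a subunit of complex I, had values of 175 and 153 in control and of 587 and 462 in mdx (log2 fold change 1.66, SE 0.27, limma adjusted p 0.00078). Ndufa4 measured 112 and 83 in control versus 354 and 281 in mdx, with 1.70, and Atp5j, of the ATP synthase, stood at 192 and 218 in control against 727 and 511 in mdx, with 1.57. Of 21 glycolytic genes 5 (23.8%) were lower and 0 higher, with a median of -0.58 that became -0.90 when mdx replicate 1 was left out and -0.35 when mdx replicate 2 was. Hk2, the inducible hexokinase, had values of 434 and 601 in control and of 52 and 62 in mdx (log2 fold change -3.15, SE 0.30, limma adjusted p 5.6e-06). Slc2a1, the glucose transporter GLUT1, measured 213 and 219 in control versus 71 and 82 in mdx, with -1.49, and Pfkp, a phosphofructokinase, stood at 884 and 845 in control against 247 and 344 in mdx, with -1.56. Of 22 genes of cholesterol synthesis and uptake 0 were higher and 1 (4.55%) was lower, both below the shares of all tested genes. Their median of -0.15 became 0.13 when mdx replicate 1 was left out and -0.44 when mdx replicate 2 was.

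Cytosolic ribosomal protein genes were lower for 18 of 77 tested members and higher for 1, with a median of -0.59 that was -0.18 without mdx replicate 2, -0.91 without mdx replicate 1 and -0.33 without control replicate 1. Rplp2, of the ribosomal stalk, had values of 6352 and 4681 in control and of 999 and 956 in mdx (log2 fold change -2.48, SE 0.28, limma adjusted p 2.9e-05). Rpl24 measured 965 and 662 in control versus 229 and 231 in mdx, with -1.79, and Rpl35 was at 559 and 470 in control, 221 in mdx replicate 1 and 76 in mdx replicate 2, with -1.97 overall and -1.21 without mdx replicate 2. The higher member was Rps27l, a paralogue of Rps27 and a p53 target, with 103 and 103 in control against 525 and 274 in mdx. This change of 1.87 was 1.403 without mdx replicate 1, where its call was lost. Ribosomal protein genes have many processed pseudogenes, so their values are uncertain where reads were shared. Among 28 genes of apoptosis and p53 targets 4 (14.3%) were higher and 5 (17.9%) lower, against 6.69% and 7.46% of all tested genes. Their median of -0.12 lay between -0.21 without control replicate 2 and -0.055 without mdx replicate 2. Fas, the death receptor, stood at 550 and 355 in control against 48 and 23 in mdx (log2 fold change -3.69, SE 0.38, limma adjusted p 1.3e-05). Cdkn1a, which encodes the cell cycle inhibitor p21, had values of 952 and 531 in control and of 206 and 178 in mdx, with -1.89, opposite in direction to its relative Cdkn1c. Sesn2, a stress-induced sestrin, measured 133 and 90 in control versus 14 and 16 in mdx, with -2.79. The caspase gene Casp8 stood at 23 and 21 in control against 81 and 111 in mdx, with 2.06, and its call was lost without either mdx library (2.29 and 1.84).

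Genes tied to sex steroids are given because the groups also differed in Xist and Ddx3y. Of 15 tested receptors, enzymes and targets 3 (20%) were lower and 1 (6.67%) higher, against 7.46% and 6.69% of all tested genes. Their median of 0.51 turned to -0.47 with a minimum mean of 50 and to -0.35 without mdx replicate 2. It was 0.0028 and 0.0096 without control replicates 1 and 2 and 0.31 without mdx replicate 1. Greb1, which oestrogen induces, had values of 621 and 675 in control and of 10 and 2 in mdx, and Akr1c14, an enzyme that reduces steroids, measured 376 and 468 in control versus 12 and 5 in mdx. Car12, a carbonic anhydrase and oestrogen target, stood at 230 and 1004 in control against 37 and 19 in mdx, a log2 fold change of -4.13. Gper1, a membrane receptor for oestrogen, had values of 11 and 2 in control and of 96 and 68 in mdx, with 3.77, and its call was lost without mdx replicate 1 (3.52). The oestrogen receptor gene Esr1 measured 1485 and 1376 in control versus 1020 and 1040 in mdx and was not called (-0.47). The part of sex in these values cannot be told apart from that of genotype. Among the sirtuins 0 of 7 were called by limma, with a median of -0.19 (0.099 without control replicate 1, -0.30 without control replicate 2 and -0.11 without mdx replicate 1), and Sirt1, with 604 and 299 in control against 225 and 201 in mdx, was the one with an unadjusted p below 0.05 (0.0055, adjusted 0.038). Its log2 fold change was -0.996, with -0.49 without control replicate 1 and -1.50 without control replicate 2.

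Promoters were searched for 8 short motifs, to show what sequence the tested members of a list, called or not, share. RefSeq windows of 250 bases before to 50 bases after the transcription start (GRCm38.p6) were matched by symbol, chromosome and strand to 10188 of the 15382 tested genes. The motifs, searched on both strands, were CRE (TGACGTCA), AP-1 (TGACTCA), the CArG box, the heat shock element (GAA, TTC and GAA with 2 bases of any kind between each), kappa B, the interferon response element (GAAA, 2 bases of any kind and GAAA), CHR (TTTGAA) and E2F (TTTGGCGC or TTTCCCGC). CHR, the cell cycle homology region, was in 28 of 39 promoters of the G2 and mitosis list (71.8%), against 11.4% of the tested genes and 17.9% of all 32851 RefSeq windows. The E2F motif was in 11 of 39 promoters of the S phase list (28.2%), against 2.94% of tested genes. The interferon response element was in 15 of 33 promoters of the interferon list (45.5%), against 2.93%, and kappa B in 10 of 23 promoters of the NF-kB list (43.5%), against 6.99%. Of 29 promoters of immediate early genes, kappa B was in 5 (17.2%), against 6.99%, CRE in 4 (13.8%), against 3.11%, and AP-1 in 1 (3.45%), against 3.51%. Chaperone genes had the heat shock element in 3 of 17 promoters (17.6%), against 0.461%. In these pairs of list and motif, other than AP-1 in immediate early genes, the share lay above that of the tested genes. The pairs were picked from all pairs of list and motif. Others lay on either side, such as kappa B in 6 of 33 interferon promoters (18.2%) and CRE in 0 of 33. Over all called genes the shares were closer. The interferon response element was in 6.58% of promoters of genes called higher and 2.59% of those called lower, CHR in 14.8% and 9.20%, CRE in 2.54% and 5.05%, and AP-1 in 3.29% and 5.18%. A match describes these letters in this window and not a bound site.

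**Figure D5:**
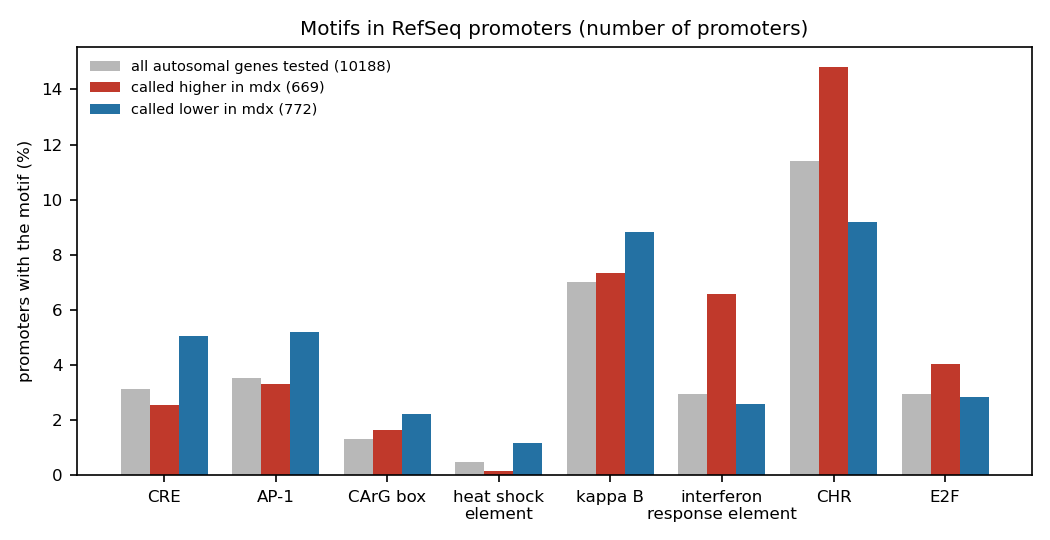
Percent of RefSeq promoter windows that hold each of 8 motifs, for 10188 tested autosomal genes (grey), 669 genes called higher in mdx (red) and 772 called lower (blue). The interferon response element is in 6.58% of the promoters of genes called higher, and CRE in 5.05% of those called lower.

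The windows of 5 list members with large fold changes and a match are shown, 5′ to 3′ on the strand of the gene, with each match in capitals. Ifit3 carries 2 interferon response elements, beginning 156 and 122 bases before the start. Nr4a1 and Cxcl2 each carry 1 kappa B match, beginning 3 and 97 bases before the start. Hmmr and Ttk each carry 1 CHR, beginning 8 and 7 bases after the start. Ifit3, Hmmr and Ttk were higher in mdx, and Nr4a1 and Cxcl2 were lower.
Ifit3, chr19:34583279-34583578, + strand: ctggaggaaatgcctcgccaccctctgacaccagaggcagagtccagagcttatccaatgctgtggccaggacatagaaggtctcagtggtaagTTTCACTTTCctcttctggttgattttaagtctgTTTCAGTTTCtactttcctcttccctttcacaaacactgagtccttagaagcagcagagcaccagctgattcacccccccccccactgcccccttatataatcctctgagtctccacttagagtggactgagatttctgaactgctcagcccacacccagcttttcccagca
Nr4a1, chr15:101266596-101266895, + strand: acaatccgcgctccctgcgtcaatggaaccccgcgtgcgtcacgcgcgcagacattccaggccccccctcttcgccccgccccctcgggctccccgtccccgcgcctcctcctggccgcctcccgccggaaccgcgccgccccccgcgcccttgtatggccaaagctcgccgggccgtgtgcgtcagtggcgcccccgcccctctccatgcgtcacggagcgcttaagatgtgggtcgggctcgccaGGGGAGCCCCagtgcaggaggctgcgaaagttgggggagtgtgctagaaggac
Cxcl2, chr5:90903649-90903948, + strand: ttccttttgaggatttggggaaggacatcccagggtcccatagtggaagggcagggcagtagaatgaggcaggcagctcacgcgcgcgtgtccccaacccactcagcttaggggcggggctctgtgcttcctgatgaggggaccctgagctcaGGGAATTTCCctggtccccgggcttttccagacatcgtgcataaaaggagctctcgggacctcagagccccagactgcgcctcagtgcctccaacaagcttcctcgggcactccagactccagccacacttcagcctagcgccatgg
Hmmr, chr11:40733388-40733687, - strand: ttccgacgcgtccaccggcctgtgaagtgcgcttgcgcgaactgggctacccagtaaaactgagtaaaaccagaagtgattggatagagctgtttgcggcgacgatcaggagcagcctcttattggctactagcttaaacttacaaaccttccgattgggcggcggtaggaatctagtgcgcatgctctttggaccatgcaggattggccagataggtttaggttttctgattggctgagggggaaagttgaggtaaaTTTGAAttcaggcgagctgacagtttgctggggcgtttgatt
Ttk, chr9:83834439-83834738, + strand: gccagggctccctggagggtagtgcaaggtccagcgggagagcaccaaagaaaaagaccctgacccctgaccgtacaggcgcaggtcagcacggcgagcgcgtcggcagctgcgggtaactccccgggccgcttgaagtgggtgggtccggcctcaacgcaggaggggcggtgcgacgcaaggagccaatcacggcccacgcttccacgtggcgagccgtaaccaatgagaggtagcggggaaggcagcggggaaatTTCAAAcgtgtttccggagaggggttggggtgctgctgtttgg

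By gene type, protein-coding genes made up 13178 of the tested genes, with 6.86% higher and 7.58% lower. Small nucleolar RNAs, which guide the modification of ribosomal RNA, stood out among the noncoding types with 67 of 255 (26.3%) higher and 10 (3.92%) lower, and a median of 0.54. Of 453 lincRNA genes 45 (9.93%) were lower and 9 (1.99%) higher, with a median of -0.52, and of 327 antisense genes 25 (7.65%) were lower and 5 (1.53%) higher, with -0.61, so that their shares lower were near the 7.46% of all tested genes. Small nucleolar RNAs took 18.1% and 12.4% of the summed value in control and 17.8% and 12.2% in mdx, so their share of the total did not separate the groups. Counting of strand was not stated, and values of antisense genes and of genes within introns of others are uncertain. Among noncoding genes with a mean of at least 50, the snRNA gene Gm23287 stood at 45 and 8 in control against 817 and 636 in mdx (log2 fold change 5.15, SE 0.50, limma adjusted p 8.2e-06). A second snRNA gene, Gm22265, had values of 17 and 19 in control and of 293 and 283 in mdx, with 3.93. AY036118 measured 557 and 23 in control versus 1990 and 2910 in mdx. The log2 fold change of AY036118, 4.38, rested on 1 control library, with 6.65 without control replicate 1 and 2.11 without control replicate 2, and its call was lost without mdx replicate 2 (4.10). The lowest were Gm17056, with 1349 and 793 in control against 22 and 35 in mdx (-5.17), Gm23804, with 177 and 76 in control against 4 and 3 in mdx (-4.71), and Gm17024, with 767 and 785 in control against 20 and 56 in mdx (-4.49). All 3 lie on chromosome 12, where Gm17056 (bases 40198656 to 40201105) and Gm17024 (40209487 to 40211073) are close together. Of the tested genes of chromosome 12, 8.31% were called lower, against 7.46% of all tested genes.

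The called genes were spread over all 19 autosomes. The share called higher ran from 4.75% on chromosome 7 to 10.7% on chromosome 13, and the share called lower from 5.94% on chromosome 2 to 9.18% on chromosome 1. Chromosome 13 had the highest median log2 fold change, 0.29, against -0.13 on chromosome 17, the lowest.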

How the data were processed

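Total RNA of freshly sorted MuSCs was depleted of ribosomal RNA and sequenced on an Ion instrument. Per the study's methods, the authors used Reaper for trimming and STAR for alignment (2.4.2a in the submitters' processing notes), counted exon reads per gene with featureCounts 1.4.5-p1, leaving out reads that matched several genes or places, and normalised with DESeq2 (1.6.0 in the submitters' processing notes, while the methods give another version). The deposited values are treated here as a score: normalised counts that the authors divided by a size factor per library and rounded to whole numbers. Approximate reads are the values multiplied by recovered size factors and carry rounding error. Whether strand was used is not given in the sources used here.

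Groups came from the sample labels, with 2 libraries each. Genes averaging 5 or more over the 6 libraries were tested with limma 3.58.1 in R 4.3.3 on log2(value + 1), with all 3 groups in one fit and a prior variance that followed the mean, two-sided, with Benjamini-Hochberg adjustment over 15915 genes of the whole table, of which 15382 were autosomal. Because the values are not raw counts, no count model was used. On simulated data for mdx against control over 15915 genes, 9 of 58 genes with 2-fold, 44 of 70 with 4-fold and 67 of 72 with 8-fold changes were called, and 7 of 127 calls were false. Only these genes were changed, far fewer than were called in the data, and the spread was set by a formula. A 2-fold change also lies at the fold threshold itself. The simulated shares therefore do not carry over to the real comparison. Intervals of read ratios are 95% exact intervals for counting error, and 3 reads over a group at 0 were taken as the floor.

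Genes named were the 12 highest and 12 lowest called protein-coding genes and the 3 highest and 3 lowest noncoding genes, each averaging 50 or more without overlap between groups, and up to 4 called members of each list with the largest fold change. Other list members were named after their values were seen. The comparison, the lists and these rules were chosen with earlier results of these data known, and the lists are described without a set test. Promoter windows are from RefSeq (GRCm38.p6), and those printed lie within 1000 bases of the 5′ end in the deposited table. Whether same-numbered libraries were prepared together is not stated. The alternatives were other pseudocounts, filters, scalings and variance models, voom weights, a replicate block and leaving out each library. Some list members are counted but not reported here by name.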

Additional observations from a re-analysis of the deposited data

Results flagged for a closer look

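Outside the autosomal comparison, 4 Y-linked genes had a signal in the mdx libraries above that in the control libraries. The mean of the 2 mdx libraries was 1039.5 for the RNA helicase gene Ddx3y against 5.5 in control, 542.5 for the translation factor gene Eif2s3y against 6, 507 for the histone demethylase gene Uty against 6.5 and 352.5 for the histone demethylase gene Kdm5d against 4. In single libraries Eif2s3y had 0 and 12 in control against 579 and 506 in mdx, Kdm5d at 0 and 8 against 361 and 344, and Uty at 0 and 13 against 565 and 449. The difference in sex chromosomes between the groups cannot be told apart from that in genotype.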

How the results depend on the processing

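No gene called in mdx against control changed sign under any of the 17 alternatives. The count of 2177 called genes (1029 higher, 1148 lower) moved by over 1.5 times without a minimum mean, to 953 (388 higher, 565 lower), and with one prior variance for all genes, to 521 (165 higher, 356 lower). With the 4 control and mdx libraries alone the count was 1703. Leaving out each library in turn gave 905 to 2321 called genes, 259 to 1153 higher and 646 to 1168 lower. The causes were not tested. Of 143 called genes followed one by one, 84 lost their call with one prior variance, among them Cdkn1c, Myog, Met, Foxo3, Mki67, Oasl2, Ndufv2 and Akr1c14, and 53 without a minimum mean, among them Myog, Tnc, Akr1c14, Pecam1 and Rpl35, while 83 kept it without each of the 4 libraries, and 35, 17, 48 and 40 lost it without control replicate 1, control replicate 2, mdx replicate 1 and mdx replicate 2. The median of a list turned sign for myogenic genes (-0.034 with a minimum mean of 50), dystrophin-associated genes (-0.027 without mdx replicate 2, the lowest when leaving out a library, to 0.17 as the highest), sirtuins (-0.30 to 0.10, the latter without control replicate 1) and sex steroid genes (-0.47 with a minimum mean of 50, and -0.35 without mdx replicate 2 to 0.31 over the left-out libraries), and for the unfolded protein (0.23 without control replicate 2), cholesterol (0.13 without mdx replicate 1) and basement membrane lists (-0.0026 without control replicate 1). Whether numbers shared between groups pair the samples is not stated. Deviations of same-numbered libraries correlated at -0.13 for control and mdx. They correlated at 0.12 for control and Sirt6-mKO mdx and at 0.0093 for mdx and Sirt6-mKO mdx. A replicate block gave 2320 calls (1096 higher, 1224 lower), and a block with the mdx numbers crossed, chosen after seeing the data, gave 2286. With 2 libraries a side, genes under a mean of 20 had a median SE of 0.95, so smaller differences were not detectable there.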

Other observations

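Chromosome 13, which had the highest median log2 fold change at 0.29, holds histone genes of the Hist1 cluster. Chromosome 18 came next with a median of 0.08. Of 48 tested Hist1 genes 11 were higher and 0 lower in mdx, with a median log2 fold change of 0.97, whereas 51 of the other 532 tested genes of chromosome 13 were higher and 37 lower, with a median of 0.22. This cluster was singled out after its values were seen, and its near-identical members share sequence, so values of single members are uncertain. RNA of ribosomal RNA genes took 0.151% and 0.0496% of the summed value in control and 0.343% and 0.266% in mdx.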
